A study of Homo sapiens with 6 samples.

Results

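The genes described here are 9 transcripts that NF-κB is known to induce, namely the chemokine genes IL8, CXCL1, CXCL2, CXCL3, CCL20 and CXCL16, the cytokine genes LIF and IL6, and the adhesion gene ICAM1. They were taken by symbol from the 23228 genes counted in each library, and all 9 were found. They were chosen by their measured values in the same contrast of SMIP34-treated and control cells that is described here. Their differences between the groups are therefore given as a description without p-values. How many of them passed a test is printed, but nothing is read from it. The libraries hold RNA of HEC-1-A, a cell line of human endometrial adenocarcinoma, in 3 control libraries and 3 libraries of cells that received SMIP34, a small-molecule inhibitor of the nuclear scaffold protein PELP1. SMIP34 was given at 20 µM for 24 h, and all cells grew in McCoy's 5A medium with 10% FBS. The controls received vehicle by the study's methods, while their labels name the medium only. All data come from 1 cell line, and no label says that the libraries of a group came from separate cultures, so p-values measure the spread between these libraries.

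NF-κB is a family of dimeric transcription factors that IκB proteins hold in the cytoplasm. When the IKK kinases mark IκB for degradation, the dimers enter the nucleus, bind κB sites and induce genes of inflammation, among them genes of their own inhibitors. In epithelial cells its targets include chemokines that recruit neutrophils and lymphocytes, cytokines, and surface proteins to which leukocytes adhere. Many of these mRNAs are short-lived because AU-rich elements in their 3′ untranslated regions recruit decay factors.

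Library totals lay between 19562711 and 22014835 counts. Control replicate 1 had a count on 16881 genes, against 15965 to 16100 in the other libraries. The mRNA of PELP1, whose protein the compound targets, was slightly higher with SMIP34. It was present at 139 ± 6.5 CPM, counts relative to the scaled library total, in control and 156 ± 4.43 with SMIP34 (SD, n = 3 each), and the log2 fold change was 0.16 (adjusted p = 0.000746 in edgeR). The epithelial markers were summed to between 5970 and 6160 CPM in control and between 5870 and 5980 CPM in treated libraries.

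The promoters of the members are shown first because the binding motif of NF-κB lies at nearly the same place in most of them. RefSeq promoters (GRCh38.p14) were at hand for IL8, CXCL1, CXCL2, CXCL3, CCL20, IL6 and ICAM1, which is 7 of the 9 genes. CXCL16 and LIF had no entry. The κB motif was searched as GGANNTTCC on both strands in the 250 bases before each start, and 6 of the 7 promoters held a match. Of all 35116 promoters in the table, 3.84% held one in the same length. The genes were listed as known NF-κB targets, and CXCL1, CXCL2 and CXCL3 are close copies of each other. The matches are therefore not separate cases, and nothing is read from their number. The lines below give the 60 bases from 120 to 61 bases before the RefSeq start, 5′ to 3′ on the gene's strand, with the κB match in capitals.

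IL8: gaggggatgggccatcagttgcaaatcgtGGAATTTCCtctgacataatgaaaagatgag

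CXCL1: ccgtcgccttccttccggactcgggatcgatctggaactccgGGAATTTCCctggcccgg

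CXCL2: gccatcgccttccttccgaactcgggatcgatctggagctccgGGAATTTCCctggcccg

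CXCL3: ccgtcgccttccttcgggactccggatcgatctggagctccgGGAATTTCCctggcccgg

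IL6: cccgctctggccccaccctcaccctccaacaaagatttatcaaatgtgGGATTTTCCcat

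CCL20: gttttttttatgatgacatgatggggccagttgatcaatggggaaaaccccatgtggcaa

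Each window matched GRCh37 at 1 place, at chr4:74606166-74606225 (plus strand) for IL8, chr4:74734990-74735049 (plus) for CXCL1, chr4:74964973-74965032 (minus) for CXCL2, chr4:74904467-74904526 (minus) for CXCL3, chr7:22766699-22766758 (plus) for IL6 and chr2:228678438-228678497 (plus) for CCL20. The 4 chemokines of chromosome 4 carried the same 9 letters, GGAATTTCC, whose reverse complement also fits the searched motif. The match lay 91 to 83 bases before the start of IL8, 78 to 70 bases before CXCL1 and CXCL3, and 77 to 69 bases before CXCL2. IL6 carried GGATTTTCC, 72 to 64 bases before its start. ICAM1 carried that reverse complement, GGAAATTCC, 186 to 178 bases before its RefSeq start. The hg19 gene models used for counting begin 279 bases upstream of the RefSeq start in ICAM1, 85 bases in CXCL2 and 84 bases in CXCL3, so in these 3 genes the match lies downstream of the first base of the counted model. The 250 bases before CCL20 held no match to these letters, which says only that these letters are not there. Other forms of the κB site were not searched, so CCL20 is not shown to lack one.

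The promoters differed more in the other motifs that were searched. An AP-1 motif, searched as TGANTCA, was found in IL8 alone among the 7, as TGACTCA from 137 to 131 bases before the start, and 6.57% of all promoters held one. A TATA box, searched as TATAAA, began 31 bases before the start of IL8, 29 bases before CCL20 and 30 bases before ICAM1, and 10.7% of all promoters held one. Both were searched on both strands, and no match overlapped another. A match is a description of the letters and not evidence of binding.

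**Figure D1:**
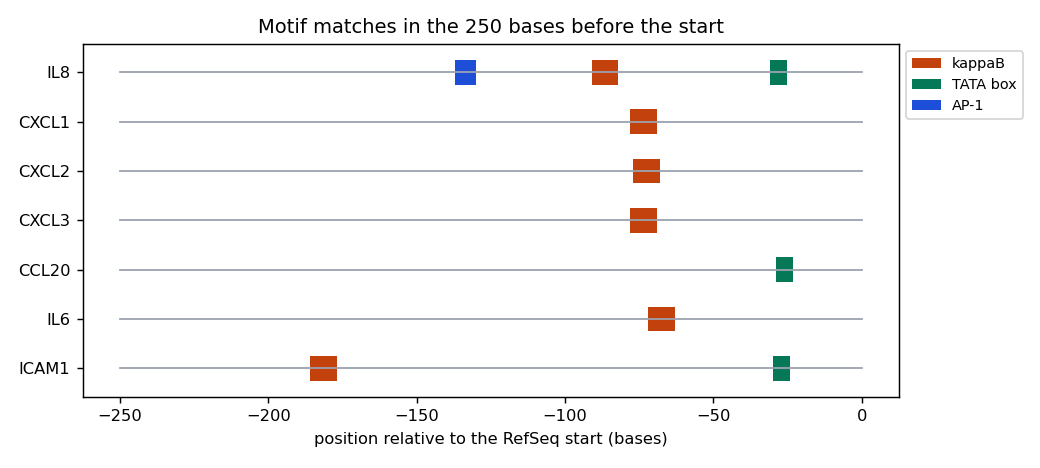
Motif matches in the RefSeq promoters of 7 of the genes, with the position relative to the start in bases on the x axis and 1 line per gene. Coloured blocks are the matches to the κB, AP-1 and TATA box letters. The κB block lies between 91 and 64 bases before the start in IL8, CXCL1, CXCL2, CXCL3 and IL6, farther upstream in ICAM1, and CCL20 has none.

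IL8, CXCL1, CXCL2 and CXCL3 encode neutrophil-attracting CXC chemokines that act on the receptors CXCR1 and CXCR2. Transcripts of all 4 were higher in every SMIP34-treated library than in every control library, as were 22.6% of all genes tested. All 4 were scarce in control cells. IL8, whose current symbol is CXCL8, encodes interleukin-8. It lies on chromosome 4 of hg19 from 74606223 to 74609433 on the plus strand, with 4 exons.

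IL8 was counted 38, 38 and 23 times in control replicates 1, 2 and 3 and 179, 157 and 164 times in SMIP34 replicates 1, 2 and 3. These are 1.96, 1.75 and 1.11 CPM in control and 8.16, 7.26 and 7.58 CPM in treated cells. The lowest treated library was 3.71 times the highest control library, and control replicate 3 was the lowest of all. The means were 1.6 ± 0.443 and 7.67 ± 0.455 CPM (SD, n = 3 each), a 4.78-fold difference, or 2.26 on the log2 scale (standard error 0.17). IL8 ranked at position 10 of the 13408 genes tested by fold change, highest first. It was also among the scarcer transcripts, with a lower control level in 9.21% of the genes tested.

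CXCL3, the chemokine GROγ, lies from 74902312 to 74904490 on the minus strand of chromosome 4. Its control libraries held 0.721, 0.552 and 0.962 CPM and its treated libraries 2.42, 2.5 and 2.36 CPM. The treated libraries lay close together, while the controls were spread over only 12 to 20 counts. The difference was 3.24-fold, a log2 fold change of 1.70 (standard error 0.26), which is the largest standard error among the members that were tested. CXCL3 ranked at position 19 of the genes tested.

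CXCL1, the chemokine GROα, lies from 74735109 to 74736955 on the plus strand. It had the highest control level of the 4, at 4.07, 4.14 and 3.85 CPM in control and 7.52, 8.65 and 9.75 CPM in treated libraries. The controls were nearly equal and the treated libraries were spread, from SMIP34 replicate 1, the lowest, to replicate 3, the highest. The means of 4.02 ± 0.151 and 8.64 ± 1.12 CPM (SD, n = 3 each) differed 2.15-fold, a log2 fold change of 1.10 (standard error 0.13). The coefficient of variation of the treated libraries, 12.9%, was above the 7.3% that counting alone gives.

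CXCL2, the chemokine GROβ, lies from 74962754 to 74964997 on the minus strand and had too few counts for the filter, so that no model was fitted to it. It was counted 1, 7 and 5 times in control replicates 1, 2 and 3 and 18, 8 and 18 times in SMIP34 replicates 1, 2 and 3. The groups did not overlap, but SMIP34 replicate 2 lay only just above control replicate 2, at 0.37 against 0.322 CPM. Summed over libraries, the 13 control counts (95% Poisson interval 6.92 to 22.2) and the 44 treated counts (32 to 59.1) gave a ratio of 3.22 after scaling, with a 95% interval from 1.7 to 6.51 that covers counting error only.

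CXCL1, CXCL2 and CXCL3 are close copies of each other, and reads that fit several places were divided into fractions when the files were made. Of all 50-base stretches of their transcripts, the length of a read, 5.33% in CXCL1, 10.1% in CXCL2 and 5.26% in CXCL3 also occurred in another gene's transcript, against 0 in each of the other members. All counts of these 3 genes were whole numbers, so no division of reads shows in their values. Whether reads from the shared stretches were counted or left out was not tested. Their counts therefore remain less certain than that of IL8.

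The 4 genes lie within 359 kb on chromosome 4, from IL8 through CXCL1 and CXCL3 to CXCL2, with gaps of 126, 165 and 58.3 kb. The same stretch holds 6 other genes, CXCL6, PF4V1, PF4, PPBP, CXCL5 and PPBPL2, and none of these had a count in any of the 6 libraries. The members of the cluster with counts are thus separated by neighbours without any.

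**Figure D2:**
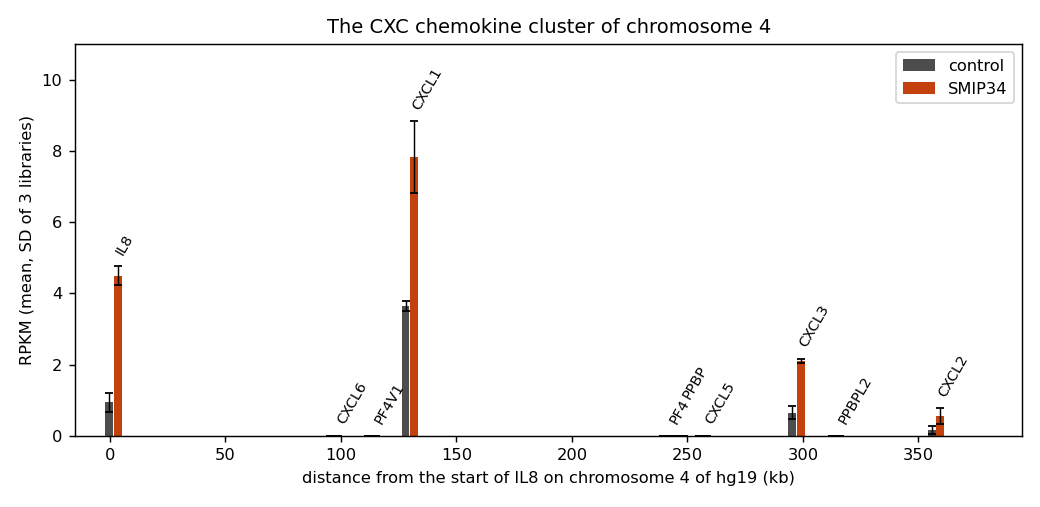
Level per exon length (RPKM, mean and SD of 3 libraries) of the 10 genes between IL8 and CXCL2, plotted against the distance from the start of IL8 in kb, with control in grey and SMIP34 in orange. Bars stand at IL8, CXCL1, CXCL3 and CXCL2, are higher with SMIP34 in each, and are at 0 for the 6 genes between them.

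The composition of this group also differed between the groups of libraries. Per exon length, the 4 transcripts were summed to 5.4 ± 0.197 RPKM (CPM per kilobase of exon) in control and 15.0 ± 0.895 RPKM in treated cells (SD, n = 3 each). CXCL1 made up 67.0, 67.9 and 67.4% of that sum in control replicates 1, 2 and 3 and 47.4, 53.8 and 55.1% in SMIP34 replicates 1, 2 and 3. IL8 made up 20.9, 18.6 and 12.6% in control and 33.3, 29.3 and 27.8% in treated libraries. CXCL1 was therefore the most abundant of the 4 in all 6 libraries, with a smaller share under SMIP34 and no overlap between the groups. The level of IL8 relative to CXCL1 per length was 0.257 ± 0.0643 in control and 0.584 ± 0.105 in treated cells. The shares of CXCL3 and CXCL2 overlapped between the groups.

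CCL20 encodes the chemokine that draws CCR6-bearing lymphocytes and dendritic cells to epithelia. It lies on chromosome 2 from 228678558 to 228682280 on the plus strand, with 4 exons. Control replicates 1, 2 and 3 held 24.7, 22.3 and 22.7 CPM, and SMIP34 replicates 1, 2 and 3 held 55, 54.5 and 52.8 CPM. The replicates lay close together within each group and the lowest treated library was 2.14 times the highest control library. The difference of 2.34-fold, a log2 fold change of 1.22, had the smallest standard error, 0.053, among the chemokines, with 471 to 1207 counts behind each value. CCL20 ranked at position 39 of the genes tested.

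CXCL16 encodes a transmembrane chemokine and scavenger receptor that binds CXCR6 and is released from the cell surface by the proteases ADAM10 and ADAM17. It lies on chromosome 17 from 4636828 to 4643223 on the minus strand, and 29196 bases separate its lower coordinate from the upper coordinate of PELP1, which is on the same strand. Control libraries held 20, 23.1 and 23 CPM and treated libraries 24.3, 21.9 and 26.3 CPM. The groups overlapped, since SMIP34 replicate 2 lay below control replicates 2 and 3. The log2 fold change was 0.13 (standard error 0.072), and the coefficients of variation of 8.0% in control and 9.12% in treated libraries were above the 4.68 and 4.37% of counting alone.

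LIF and IL6 encode cytokines of 1 family that signal through the shared receptor chain gp130, the product of IL6ST. LIF, on chromosome 22 from 30636442 to 30642796 on the minus strand, was the member with the highest CPM in both groups. Control libraries held 103, 106 and 107 CPM and its treated libraries 102, 99.6 and 106 CPM. The groups overlapped, with means of 105 ± 2.07 and 102 ± 2.99 CPM (SD, n = 3 each) and a log2 fold change of -0.04 (standard error 0.035). At 2003 to 2305.5 counts in control, LIF was measured with the smallest relative counting error of the members. It was the only member with a count that was not whole, in control replicate 2.

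IL6, on chromosome 7 from 22766766 to 22771621 on the plus strand, was counted 0 times in each control library and 0, 1 and 0 times in SMIP34 replicates 1, 2 and 3. A count of 0 allows a level of up to 0.155 CPM in the shallowest library, taking 3 counts as the floor. Summed over libraries, the upper 95% Poisson limit was 3.69 counts in control and 5.57 counts with SMIP34. A difference between levels below this floor was therefore not detectable at this depth, and no fold is given. IL6 was the member with the fewest counts, and its promoter held a κB match, as did those of IL8, CXCL1, CXCL2 and CXCL3.

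ICAM1 encodes the surface protein to which the leukocyte integrins LFA-1 and Mac-1 bind. It lies on chromosome 19 from 10381517 to 10397291 on the plus strand. Control replicates 1, 2 and 3 held 63.6, 63.1 and 65.4 CPM, and SMIP34 replicates 1, 2 and 3 held 95.2, 90.2 and 87.4 CPM. The groups did not overlap, and the lowest treated library was 1.34 times the highest control library. The means of 64 ± 1.2 and 90.9 ± 3.95 CPM (SD, n = 3 each) differed 1.42-fold. The log2 fold change of 0.51 (standard error 0.04) lies just past the fold limit of 0.5, and it was under that limit without SMIP34 replicate 1 (0.47), without control replicate 2 (0.496) or with upper quartile scaling (0.49).

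**Figure D3:**
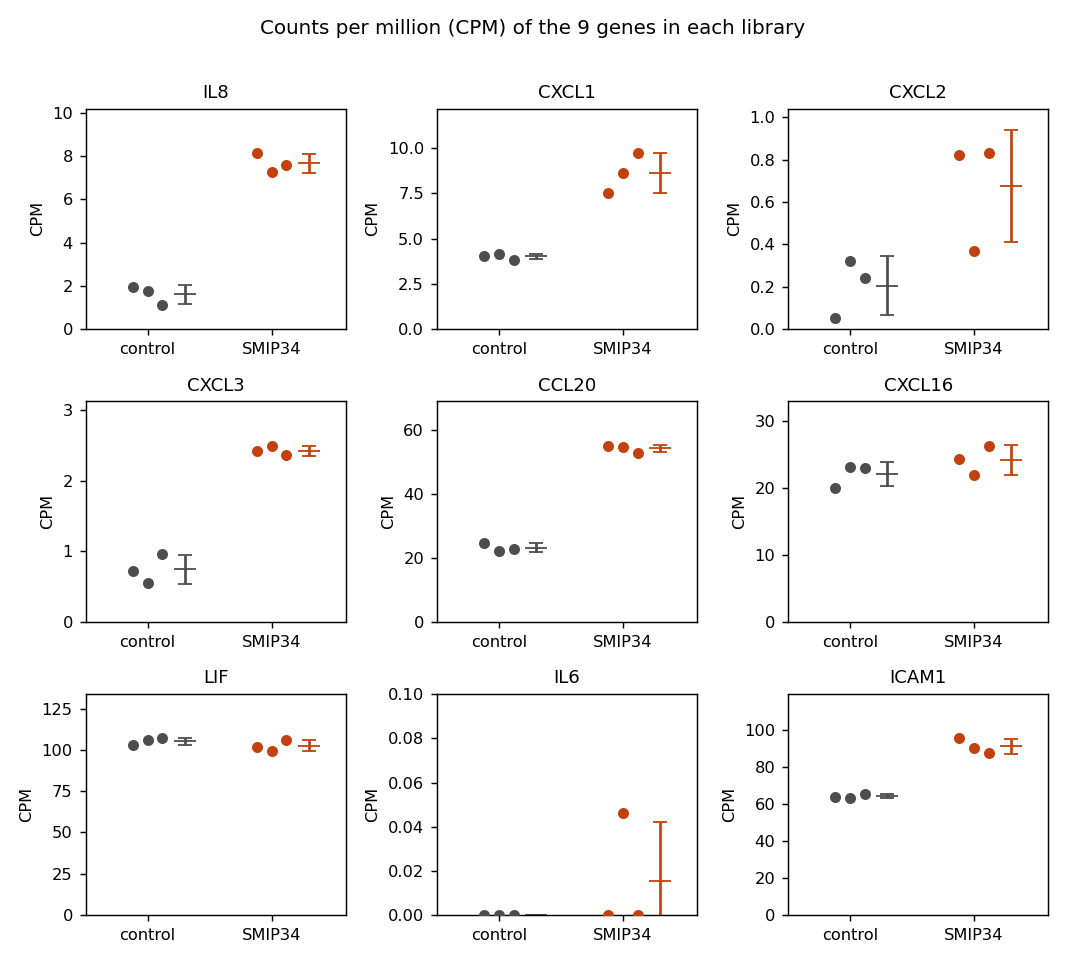
CPM of the 9 genes in each of the 6 libraries, 1 panel per gene with its own y axis from 0. Points are libraries, and the bar beside them is the mean and SD of 3. In IL8, CXCL1, CXCL2, CXCL3, CCL20 and ICAM1 all treated points lie above all control points, in CXCL16 and LIF the points overlap, and IL6 has a single count in 1 treated library.

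Read together, the 9 genes covered a wide range of differences, from LIF near 0 to IL8 at 2.26 on the log2 scale. The low-count filter passed 7 of the 9 genes and left out CXCL2 and IL6. A gene was called at an adjusted p under 0.05 in edgeR's quasi-likelihood test and an absolute log2 fold change over 0.5. By this rule 5 of the 7 genes were called, IL8, CXCL3, CCL20, CXCL1 and ICAM1, each of them higher. Of all 13408 genes tested, 3.31% were called, 1.44% higher and 1.87% lower, and nothing is read from the members' count because the same contrast chose them. In the same 5 genes every treated library lay above every control library, as it did in 22.6% of all genes tested. Over the 7 genes the median was 1.10 on the log2 scale, against -0.002 over the whole table. In bulk RNA, more cells that express a gene and more RNA of it per cell cannot be told apart.

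**Figure D4:**
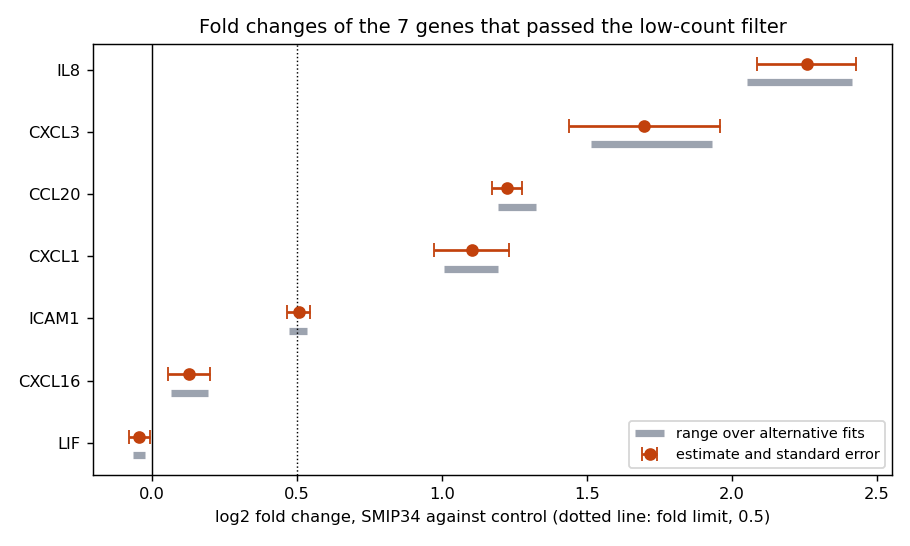
Log2 fold change of SMIP34 against control for the 7 genes that passed the low-count filter, with points and bars for the estimate and its standard error and grey bars for the range over 17 alternative fits. Values run from LIF, just below 0, to IL8 at 2.26, and the dotted line marks the fold limit of 0.5, which lies inside the grey bar of ICAM1 alone.

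Levels of different genes were compared per exon length. In control cells CCL20 (27.6 RPKM, mean of 3) and LIF (26.9) were the most abundant and their libraries overlapped. ICAM1 (19.7), CXCL16 (9.18) and CXCL1 (3.64) followed, each without overlap with its neighbours. IL8 (0.941) and CXCL3 (0.646) overlapped, and CXCL2 (0.17) and IL6 (0) were lowest.

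In treated cells CCL20 stood alone at the top with 64.3 RPKM. ICAM1 (28) and LIF (26.1) came next, and their ranges met at 26.9 RPKM. CXCL16 (10.1), CXCL1 (7.82), IL8 (4.5), CXCL3 (2.1), CXCL2 (0.56) and IL6 (0.013) followed without overlap between neighbours.

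The order of the members was thus nearly kept, with ICAM1 level with LIF and CCL20 clear of it. The level of CCL20 relative to LIF was 1.11, 0.977 and 0.984 in control replicates 1, 2 and 3 and 2.51, 2.55 and 2.33 in SMIP34 replicates 1, 2 and 3. That of ICAM1 relative to LIF was 0.733 ± 0.0133 in control and 1.07 ± 0.0659 in treated cells. LIF took 47.7 ± 0.339% of the counts of the 9 genes in control and 35.2 ± 0.806% in treated cells (SD, n = 3 each).

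**Figure D5:**
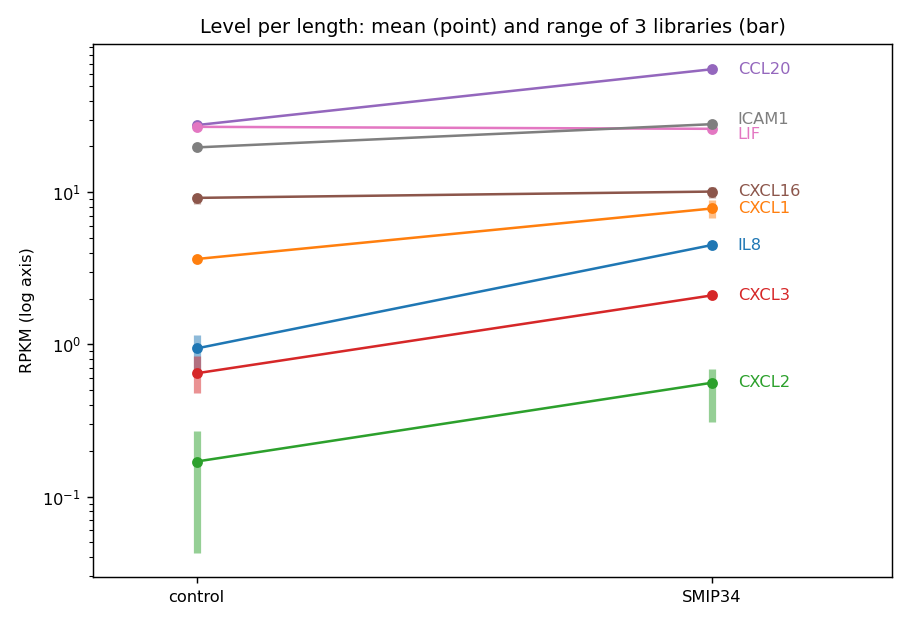
Level per exon length (RPKM, log axis) of 8 of the genes in control and SMIP34-treated cells. Points are means, shaded bars are the range of 3 libraries, and lines join the groups. IL6, with 1 count in all, is not drawn. CCL20 and LIF start together near 27 RPKM and part under SMIP34, where ICAM1 meets LIF.

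The 3′ untranslated regions of the members, read from the canonical GENCODE transcripts on GRCh37, differed in the AU-rich pentamer ATTTA and in the longer nonamer TTATTTATT. CXCL2 held 10 pentamers and 5 nonamers, CXCL1 held 6 and 3, LIF held 7 and 2, and IL8 (9 and 1) and CXCL3 (7 and 1) held 1 nonamer each. IL6 had 6 pentamers, CCL20 had 3, ICAM1 had 2 and CXCL16 had 1, and none of these held a nonamer. Among 19064 mRNAs, 8.48% held at least 1 nonamer, 2.0% at least 2, and 29.2% at least 5 pentamers. Nonamers were thus held by the 4 chemokines of chromosome 4 and by LIF. A relation of these letters to the differences between the groups was not tested.

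By a rule of likeness, the genes whose pattern over the 6 libraries was closest to IL8 were HSPA1B, GEM, PLA2G4C, GADD45B and ATF3. Likeness was the root mean square difference in log2 CPM, each gene set to its own control mean, and it was 0.45 for HSPA1B, 0.451 for GEM, 0.458 for PLA2G4C, 0.487 for GADD45B and 0.514 for ATF3. Because of this setting, the measure mostly follows the size of the difference between the groups. The log2 fold changes of the 5 genes lay between 1.64 (GADD45B) and 2.17 (PLA2G4C), and shared regulation was not tested. HSPA1B is annotated at 5 places, so its count is uncertain.

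Among genes related to the members, all 11 genes of NF-κB subunits and inhibitors were higher at an adjusted p under 0.05 in edgeR's quasi-likelihood test, a rule that 17.4% of all genes tested passed upwards and 17.2% downwards, and 4 of them passed the fold limit. The list had a median of 0.47 on the log2 scale. NFKBIA, the gene of IκBα, rose by 0.85 on that scale (adjusted p = 2.65e-16 in edgeR), from 76.2 ± 0.0899 to 137 ± 4.11 CPM (SD, n = 3 each). NFKB2 (log2 fold change 0.59), RELB (0.53) and BCL3 (0.52) also passed, while RELA (0.18) and NFKB1 (0.23) passed the adjusted p only. RELB was under the fold limit without control replicate 3, at 0.48, and BCL3 without SMIP34 replicate 1, at 0.48.

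Of 25 tested genes of NF-κB signal transduction, 9 were higher and 4 lower at the adjusted p, and TNFAIP3 alone passed the fold limit. Among the abundant ones, TNIP1 (0.20) was higher and IRAK1 (-0.10) lower at the adjusted p. TNFAIP3, the gene of the inhibitor A20, rose by 1.51 on the log2 scale (adjusted p = 2.66e-13 in edgeR), from 7.44 ± 0.741 to 21.2 ± 0.721 CPM (SD, n = 3 each). Of 15 other tested genes that NF-κB or TNF induces, 11 were higher and 0 lower at the adjusted p, and BIRC3 (log2 fold change 1.04), SAA2 (0.86), SAA1 (0.58) and IRF1 (0.54) were called. SAA1 and SAA2 are near-identical copies with few counts, and their calls were lost without control replicate 3 and without SMIP34 replicate 2, respectively. The abundant TNFAIP2 (0.26) and PLAU (0.39) passed the adjusted p only. These lists and the members are both drawn from what NF-κB is known to induce, so they are not independent of each other.

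Most other chemokine genes had few counts or none. Of 42 other chemokine ligand genes, 26 had no count in any library and 3 were tested. CCL5 was called higher, by 1.68 on the log2 scale (standard error 0.42, adjusted p = 0.00254 in edgeR), from 0.259 ± 0.0764 to 0.843 ± 0.0988 CPM (SD, n = 3 each). It rests on 4 to 7 counts per control library, was left out by a filter of 1 CPM, and got no adjusted p from DESeq2. CCL28 (log2 fold change -0.22) and CX3CL1 (-0.23) did not pass. Matches to the κB letters stood in 5 of the 28 promoters at hand for these chemokines.

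Other cytokine genes moved in both directions. Of 14 tested, 3 were higher and 3 lower at the adjusted p in edgeR, beside 17.4 and 17.2% of all genes tested. CSF1 (log2 fold change 0.80), IL11 (0.77) and IL32 (0.76) were called higher. CTF1 (-0.74), which encodes a relative of LIF, was called lower. IL11, also of the IL6 family, was not called by DESeq2 nor without control replicate 3 or SMIP34 replicate 1. TNFSF9 (-0.13) passed the adjusted p only, and CLCF1 (-0.13) did not. Of 6 other adhesion genes tested, 0 were called by edgeR, DESeq2 or limma voom. At the adjusted p in edgeR, 0 were higher and 3 lower, beside 17.4 and 17.2% of all genes tested. These 3 were ICAM2 (-0.37), ICAM3 (-0.33) and CD58 (-0.45), named after their values were seen. The abundant ALCAM (-0.04) and F11R (0.07) did not pass.

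The CXC chemokine receptors were near the limit of detection. CXCR1 and CXCR2 had at most 2 counts in any library and CXCR6 had 0 in each. CCR6, the receptor of CCL20, was at 1.12 ± 0.051 CPM in control and 1.46 ± 0.648 CPM with SMIP34 (SD, n = 3 each). The log2 fold changes of CCR6 (0.39) and ADAM17 (0.09) did not pass the adjusted p. IL6ST, the chain through which LIF and IL6 signal, rose by 0.26 on the log2 scale (adjusted p = 1.33e-06 in edgeR), from 116 ± 2.79 to 138 ± 4.16 CPM (SD, n = 3 each), and ADAM10, which sheds CXCL16, changed by -0.09 (adjusted p = 0.0158 in edgeR). Of the 7 receptor and partner genes tested, 0 were called by edgeR, DESeq2 or limma voom. At the adjusted p in edgeR, 1 was higher and 1 lower, beside 17.4 and 17.2% of all genes tested.

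The list of IL6 and LIF signaling and response held 12 tested genes. At the adjusted p, 4 were higher and 2 lower, beside 17.4 and 17.2% of all genes tested. JAK1 (log2 fold change 0.96), which encodes a kinase of the signal, was called higher. The fibrinogen genes FGG (-1.09) and FGB (-0.77) were called lower, and SOCS3 (0.31), a response gene, did not pass. FGG was under 1 CPM, and leaving out control replicate 1, 2 or 3 or SMIP34 replicate 1 or 3 lost its call. STAT3 (0.18) and PTPN11 (0.08) passed the adjusted p only. In a list of mRNA decay and its control, not limited to factors that bind AU-rich elements, 15 genes were tested. At the adjusted p, 8 were higher and 0 lower, beside the same 17.4 and 17.2%. ZC3H12A (1.09), which encodes the RNase Regnase-1, and ZFP36 (0.85), which encodes tristetraprolin, were called higher. Both proteins are known to degrade mRNAs of cytokines and chemokines. ZFP36L1 (0.17) passed the adjusted p only and HNRNPD (0.05) did not.

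Leukocytes, endothelial cells and stromal cells also express several of the members, so their markers are given. The 12 leukocyte markers were summed to 3.36 to 3.91 CPM in control and 5.15 to 5.32 CPM in treated libraries, 3 of them were tested, and CSF1R was called higher with overlapping groups. PTPRC, the general leukocyte marker, had 1 count over all 6 libraries, and CD3E, MS4A1 and CD53 had 0. CD14 was counted 2, 4 and 1 times in control and 11, 5 and 6 times in treated libraries. ITGAM was counted 3, 5 and 2 times against 6, 8 and 6 times. Both of these myeloid markers had too few counts to be tested and were higher in every treated library. Other markers of the list did not share this. CD68 (log2 fold change 0.43) and LAPTM5 (0.20) were tested, were not called and overlapped between the groups. CORO1A had 2, 0 and 3 against 0, 2 and 0 counts, and LYZ 0, 0 and 1 in both groups. The 8 endothelial markers were summed to 0.433 to 0.927 CPM in control and 0.277 to 0.832 CPM in treated libraries, and none had enough counts to be tested. The 9 fibroblast and stromal markers were summed to 5.29 to 6.74 CPM and 6.43 to 6.89 CPM, with LUM and POSTN at 0. Of 3 tested, COL1A1 was called higher, just past the fold limit (log2 fold change 0.50). PDGFRB (-0.54) and THY1 (-0.25) were lower and not called. The part of these low levels in the members' differences was not tested.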

How the data were processed

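RNA-seq counts of 3 control and 3 SMIP34-treated libraries were used, grouped by their labels, and no library was left out. The deposited values are estimated counts, which can be fractional, and had not been normalized. Per the file headers, the authors made them with featureCounts 1.5.0-p1 over exons of the UCSC hg19 genes, by strand, at a minimum mapping quality of 2, and divided reads among several places or genes. The submitters' processing notes list bcl2fastq, HISAT2 and SAMtools, while the paper's methods name tophat2 and HTSeq. The labels name library kits of different makers without assigning them. Between 6.31 and 7.43% of values in a library were not whole, and counts were rounded for the tests.

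Genes were filtered with filterByExpr (minimum count 10), scaled by TMM, and compared in edgeR 4.0.16 (R 4.3.3) by its newer quasi-likelihood F test. P-values of the 13408 genes were adjusted together by the Benjamini-Hochberg method. log2 CPM used a prior count of 2. RPKM used the exon lengths in the files. The biological coefficient of variation was 3.03%, so small differences could pass. The test was tried on simulated data first. Motifs were searched in RefSeq promoters and in GENCODE transcripts on GRCh37.

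The members and the lists of related genes were chosen with earlier results of these data known. The genes named are the 9 members, PELP1, the 5 genes most like IL8, and from each list at most 4 called genes with the largest change and at most 2 uncalled genes of highest CPM. ICAM2, ICAM3, CD58, SOCS3, CCR6, ADAM17, the CXC receptors and single cell type markers were named outside this rule, after their values were seen. Alternatives were DESeq2 1.42.0, limma voom (limma 3.58.1), other scalings, filters, gene length offsets (loess span 0.3), the replicate number as a block, and each library left out. Replicates were treated as separate libraries. Pairs within a group differed by 1.9 to 3.28 in chi-square per gene, above sampling noise, which does not by itself show separate preparation. Plots were made in Python 3.11.15 (matplotlib 3.10.9).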

Additional observations from a re-analysis of the deposited data

How the results depend on the processing

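No tested member and no related gene called in edgeR changed sign under the alternatives that were run, while some uncalled related genes did, such as IL12A (-0.12 to 0.58). The log2 fold changes ranged over 17 alternatives from 2.05 to 2.42 for IL8, 1.51 to 1.93 for CXCL3, 1.20 to 1.32 for CCL20, 1.01 to 1.19 for CXCL1, 0.47 to 0.53 for ICAM1, 0.07 to 0.20 for CXCL16 and -0.07 to -0.02 for LIF. The number of members called was 4 to 6. It was 4 with upper quartile scaling or without SMIP34 replicate 1, where ICAM1 was under the fold limit, and 6 without a low-count filter, without control replicate 3 or without SMIP34 replicate 2, where CXCL2 was tested and called. Without control replicate 2 it was 5, with CXCL2 called and ICAM1 under the limit. The median log2 fold change of members was 1.225 without a low-count filter and between 1.006 and 1.194 with each library left out. Without the fold limit, 4645 genes and 61 of the related genes were called, against 444 and 19. DESeq2 called 318 genes. The correlations of deviations between libraries of the same replicate number were -0.028, 0.033 and -0.011, and these numbers were not used as pairs. With the replicate block, 453 genes and 5 members were called, and no call of a member changed. Few counts limit IL6, CXCL2, CXCL3 and CCL5.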
